A study of Drosophila melanogaster with 7 samples.

Results

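The hormone genes AstA, AstC, CCHa1, CCHa2, Orcokinin and Mip are 6 of the 17481 genes measured in sorted cells of the fly midgut. They were chosen by name, as hormones of the AstC-type (class I) enteroendocrine cells and related allatostatins. Of the 6, 5 were found under their own names. Orcokinin was found through its gene identifier, FBgn0034935, because the table lists it as CG13565.

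RNA was sequenced from GFP-labelled cells sorted as intestinal stem cells from adult Drosophila melanogaster midguts, about 10000 cells per sample, after elastase digestion. Both groups were adults at day 2. There were 3 Ctrl libraries, of wild-type genotype, and 4 ScOE libraries, in which Sc, the product of the proneural gene scute (sc), was overexpressed. The labels name neither the driver nor the transgene, and they do not say whether libraries came from separate flies or pools, so each p-value reflects variation among these 7 libraries, and some of that may be technical. RNA was amplified before the libraries were made.

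Enteroendocrine cells are the hormone-secreting cells of the midgut epithelium, and they arise from the same stem cells as the absorptive enterocytes. Each makes a small set of peptide hormones, cut from larger precursors and released from dense vesicles. AstC and Orcokinin mark one main class of these cells, and Tachykinin (Tk) and neuropeptide F (NPF) mark the other. The allatostatins were named in other insects for blocking the synthesis of juvenile hormone, and in the fly they act on feeding, metabolism and gut movement. AstA encodes allatostatin A peptides, AstC encodes an allatostatin C peptide, and Mip encodes myoinhibiting peptides, also called allatostatin B. The CCHamides are encoded by CCHa1 and CCHa2, and the CCHa2 peptide is known to link feeding to insulin release. Orcokinin peptides were first described in crustaceans.

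The targeted gene sc measured 2.44, 0.978 and 0.886 FPKM in Ctrl 1, 2 and 3, against 190, 122, 170 and 66.0 FPKM in ScOE 1, 2, 3 and 4 (FPKM is the deposited unit, fragments scaled by transcript length and by the mapped total of the library). The 5 enteroendocrine markers (pros, Rab3, nSyb, 7B2 and amon) summed to between 5.53 and 22.7 FPKM in Ctrl and between 341 and 687 FPKM in ScOE. Each of the 5 was called higher, but most of the ScOE sums was 7B2, at 221 to 530 FPKM. The markers 7B2, amon and pros are also among the processing genes and transcription factors given below, so those lists are not separate from this one. The 5 progenitor markers, which include the stem cell marker esg, summed to 490 to 644 FPKM in Ctrl and 423 to 508 FPKM in ScOE. Among them Sox21a fell, from a mean of 117 to 46.8 FPKM (adjusted p = 0.00122 in limma), and esg, Dl, mira and klu did not pass. The 8 enterocyte markers varied widely in both groups, from 567 to 17312 FPKM in Ctrl and from 229 to 7743 FPKM in ScOE, with the lowest sums in Ctrl 1 and ScOE 1. Of the 8, 3 fell and 0 rose. Jon99Fii fell by 5.14 and Myo31DF by 0.85 on the log2 scale (adjusted p = 0.00237 and 0.00334 in limma). Amy-d fell with an adjusted p of 0.0486 in limma, which was 0.0957 with no filter. Visceral muscle markers stood apart in ScOE 3, with a sum of 142 FPKM where no other library was above 9.34 FPKM. The 4 neuron markers summed to at most 7.80 FPKM in Ctrl and to 19.5 to 23.6 FPKM in ScOE. Of the other markers looked at, Hml and He for hemocytes, repo, alrm and wrapper for glia, trh, serp and verm for trachea, and Lsp2, Fbp1 and Lsp1beta for fat body stayed below 1 FPKM in every library. The other markers of these lists were higher: srp for hemocytes was at 3.28 to 6.80 FPKM over all libraries, moody for glia was at 131 to 208 FPKM in Ctrl and 68.0 to 90.2 FPKM in ScOE, and btl for trachea was at 3.16 to 4.38 FPKM in Ctrl and 0.651 to 1.49 FPKM in ScOE. NimC1, also for hemocytes, reached 1.15 FPKM in Ctrl. The part of these cells in the hormone values was not tested.

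The comparison of ScOE with Ctrl asked how much RNA of each hormone the sorted cells held when Sc was overexpressed. CCHa1, AstA, AstC, CCHa2 and Orcokinin rose, with mean FPKM 7.18-fold to 54.8-fold higher in ScOE, and every ScOE library was above every Ctrl library for each of these 5 genes. Mip did not pass the test and stayed at a few FPKM in both groups. In bulk RNA, more cells making a hormone and more hormone RNA per cell cannot be told apart. Neurons are known to make several of these peptides too, and the part of the neuron markers, higher in ScOE as given above, was not tested.

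**Figure D1:**
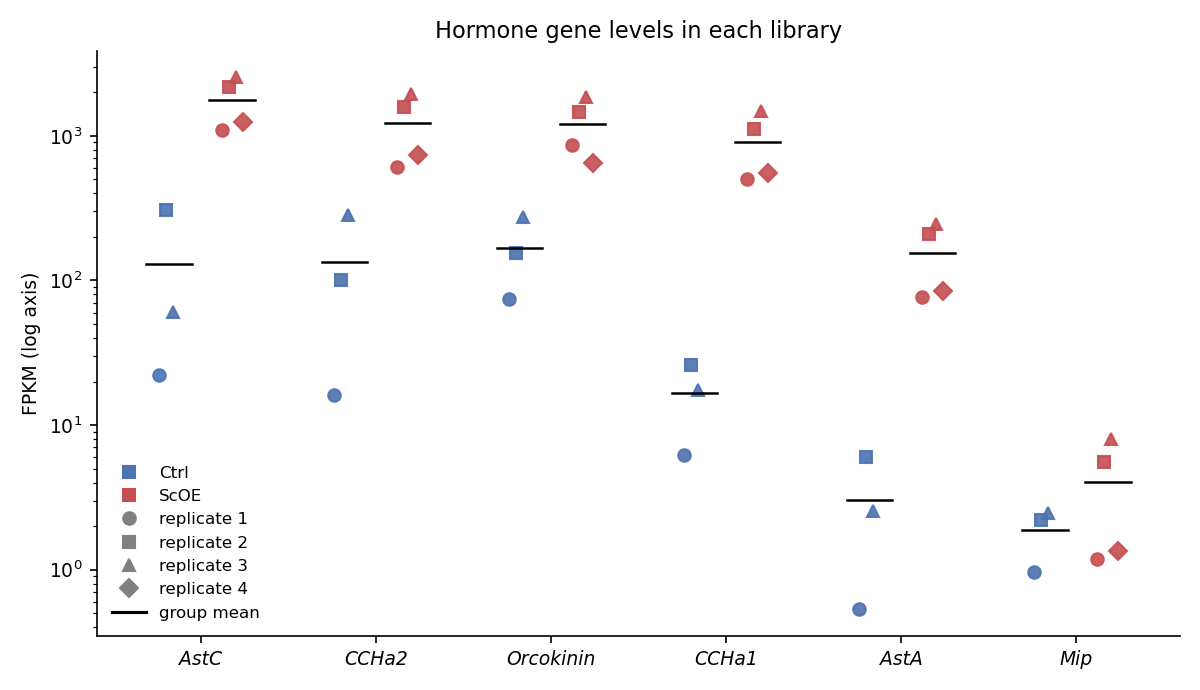
Level of each hormone gene in each library, in FPKM on a log axis, for 3 Ctrl libraries (blue) and 4 ScOE libraries (red); marker shapes give the replicate number and black bars the group mean. For AstC, CCHa2, Orcokinin, CCHa1 and AstA the groups do not overlap, while the Mip values of the groups do.

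AstC (FBgn0032336; BDGP6 2L, 11076165 to 11081399, minus strand) was at 22.2, 306 and 60.1 FPKM in Ctrl 1, 2 and 3. In ScOE 1, 2, 3 and 4 it was at 1090, 2181, 2535 and 1252 FPKM. The Ctrl libraries were far apart, and the highest of them, Ctrl 2, was still 3.57-fold below the lowest ScOE library. The means were 129 ± 154 (SD, n = 3) and 1764 ± 703 FPKM (SD, n = 4), and AstC ranked 91 of 8421 tested genes by mean level in ScOE against 927 in Ctrl. Its log2 fold change was 4.45 ± 0.82 (SE) on the log2(FPKM + 1) scale, with an adjusted p of 0.00507 in limma. The value rested in part on single controls, being 3.60 without Ctrl 1 and 5.46 without Ctrl 2.

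AstA (FBgn0015591; 3R, 24760530 to 24765071, minus strand) was at 0.534, 5.99 and 2.56 FPKM in the Ctrl libraries and at 76.3, 211, 244 and 84.9 FPKM in the ScOE libraries, in order of their numbers. ScOE 2 and 3 were the high libraries and ScOE 1 and 4 the low ones, a split that recurs in the other genes below. The log2 fold change was 5.34 ± 0.62 (SE, n = 3 and 4; adjusted p = 0.000699 in limma), the rank of its rise was 12 among 8421 tested genes, and the mean FPKM was 50.9-fold higher. AstA reached 1 FPKM in 2 of the Ctrl libraries, so it was tested partly on account of its ScOE level.

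CCHa1 (FBgn0038199; 3R, 14092504 to 14096835, minus strand) was at 6.25, 25.9 and 17.6 FPKM in Ctrl and at 502, 1111, 1474 and 551 FPKM in ScOE. The lowest ScOE library was 19.4-fold above the highest Ctrl library, the widest gap of the 6 genes. Its log2 fold change of 5.74 ± 0.55 (SE; adjusted p = 0.000333 in limma) had rank 9 among all tested genes.

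CCHa2 (FBgn0038147; 3R, 13389059 to 13395197, minus strand) was at 16.3, 100 and 285 FPKM in Ctrl and at 609, 1578, 1954 and 736 FPKM in ScOE. Here Ctrl 3 was the high control, where for AstC, AstA and CCHa1 it was Ctrl 2, and the lowest ScOE library was 2.14-fold above it. The log2 fold change was 3.77 ± 0.92 (SE; adjusted p = 0.0159 in limma), and it was 2.67 without Ctrl 1 and 4.70 without Ctrl 3.

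Orcokinin (2R, 23946959 to 23949076, minus strand) was the highest of the 6 in Ctrl by its mean, at 74.9, 156 and 273 FPKM, and reached 865, 1455, 1854 and 652 FPKM in ScOE. The groups lay apart by 2.39-fold at their nearest libraries. Its log2 fold change of 2.91 ± 0.51 (SE; adjusted p = 0.00429 in limma) was the smallest of the 5 rises. The annotation gives Orcokinin 3 transcripts, and the table does not separate them.

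Mip (FBgn0036713; 3L, 17344947 to 17349666, minus strand) was at 0.964, 2.21 and 2.48 FPKM in Ctrl and at 1.19, 5.55, 7.95 and 1.35 FPKM in ScOE. Only ScOE 2 and 3 lay above the Ctrl libraries, and ScOE 1 and 4 lay below Ctrl 2 and 3. The log2 fold change was 0.57 ± 0.55 (SE; adjusted p = 0.449 in limma), with a 95% interval from -0.71 to 1.86. A rise or a fall is therefore within the interval, and at so low a level the log2(FPKM + 1) scale understates the size of either.

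All 6 genes passed the filter of 1 FPKM in at least 3 libraries, AstA and Mip with 2 Ctrl libraries at that level and the others with all 3. Of the 6, 5 were called higher and 0 lower, where over all tested genes 17.6% were called higher and 21.3% lower. Every ScOE library was above every Ctrl library for 5 of 6, and for 20.3% of all tested genes. Rises were 45.2% of all calls on the deposited scale, 60.5% after upper quartile scaling and 94.1% when FPKM totals were made equal, and 5 of the 6 genes were called higher under each. In that order, 1484, 1916 and 4453 of the 8421 tested genes were called higher. The median log2 fold change was 4.11 over the 6 genes and -0.08 over all 8421 tested genes. By rank of rise the 6 genes were spread, CCHa1 at 9, AstA at 12, AstC at 37, CCHa2 at 67, Orcokinin at 137 and Mip at 1529.

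**Figure D2:**
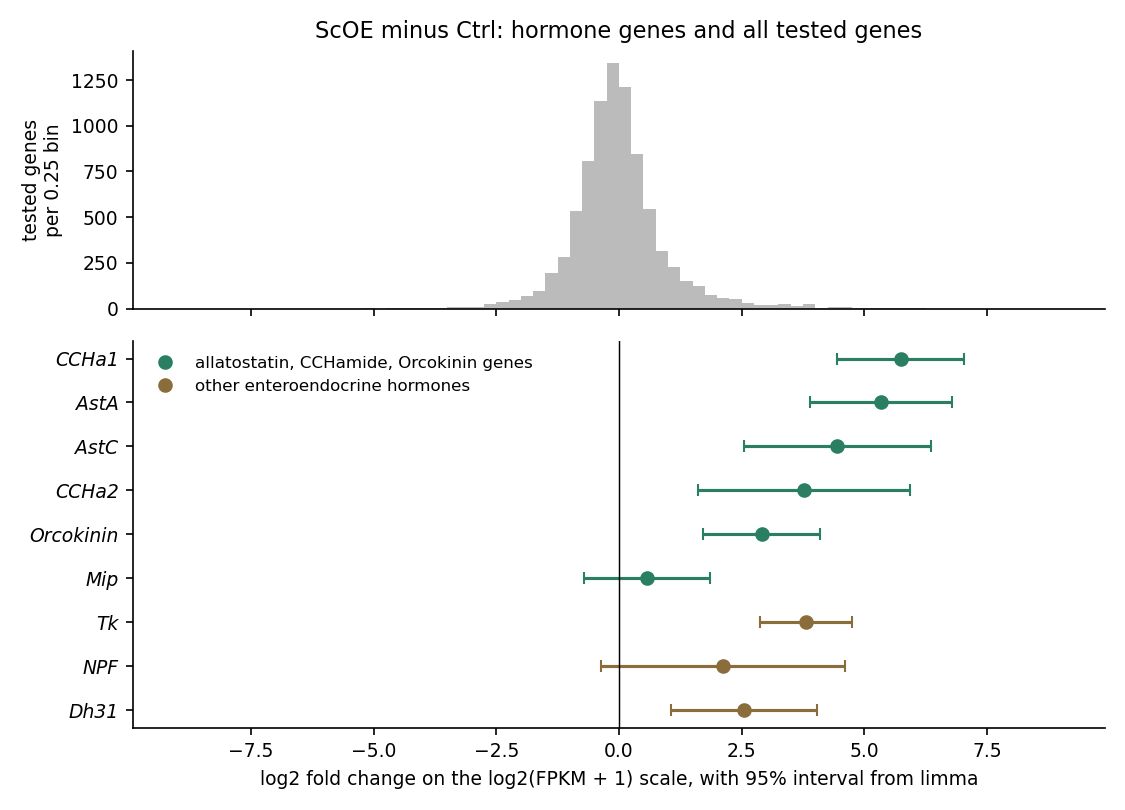
Top, the number of tested genes in each bin of log2 fold change, ScOE minus Ctrl; bottom, the log2 fold changes of 9 hormone genes with their 95% intervals from limma (3 Ctrl and 4 ScOE libraries). CCHa1, AstA, AstC, CCHa2 and Orcokinin lie between 2.91 and 5.74, and the intervals of Mip and NPF include 0.

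The order of the hormones by level also differed between the groups. In Ctrl the means ran from Orcokinin (168 FPKM) through CCHa2 (134 FPKM) and AstC (129 FPKM) to CCHa1 (16.6 FPKM), AstA (3.03 FPKM) and Mip (1.88 FPKM). The ranges of the first 4 each overlapped the next, as did those of AstA and Mip, so among neighbours in that order only CCHa1 and AstA lay apart. In ScOE AstC led (1764 FPKM), followed by CCHa2 (1219 FPKM), Orcokinin (1206 FPKM), CCHa1 (909 FPKM), AstA (154 FPKM) and Mip (4.01 FPKM). The ranges of the first 4 again overlapped, but AstC was above CCHa2 in 4 of 4 ScOE libraries, and CCHa1, AstA and Mip lay apart from one another.

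Ratios between the hormones within a library are free of any scaling between libraries. Among the 5 genes other than Mip, these ratios varied little in ScOE, by 1.16-fold to 1.64-fold from the lowest to the highest library depending on the pair, and by 2.18-fold to 14.4-fold in Ctrl. Ratios to Mip varied more in ScOE, by 2.09-fold to 3.12-fold. CCHa1 stood at 0.824, 0.704, 0.754 and 0.749 of the CCHa2 level in ScOE 1, 2, 3 and 4, and at 0.384, 0.259 and 0.0617 of it in Ctrl 1, 2 and 3. AstA stood at 0.115 to 0.134 of CCHa2 in ScOE and at 0.00899 to 0.0597 in Ctrl. AstC stood at 1.30 to 1.79 times CCHa2 in ScOE and at 0.211 to 3.05 times in Ctrl, so for this pair the groups overlapped but the Ctrl libraries were much more spread. For 10 of the 10 pairs without Mip the SD of the log2 ratio was lower in ScOE than in Ctrl, with medians of 0.23 and 1.23. With Mip included this was so for 13 of 15 pairs, the exceptions being CCHa1 and Orcokinin with Mip. The pairs share genes and the Ctrl levels were lower, so this is a description.

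Which hormones rose more than others was tested on the same log2 ratios, with FPKM + 1, by permuting the group labels over all 35 arrangements (exact, two-sided). The smallest p such a test can give is 0.0286, and 11 of the 15 pairs reached it, which gave an adjusted p of 0.039 over the 15 exact tests. The pairs are not independent of one another. AstA, AstC, CCHa1, CCHa2 and Orcokinin each rose relative to Mip, by 2.33 (Orcokinin) to 5.17 (CCHa1) on the log2 scale. CCHa1 rose by 1.97 relative to CCHa2 and by 2.83 relative to Orcokinin, and AstC fell by 1.29 relative to CCHa1. AstA rose by 1.56 relative to CCHa2, by 2.43 relative to Orcokinin and by 0.88 relative to AstC, and the last of these turned to -0.15 with a pseudocount of 5. Several of these sizes rested on single controls. AstA relative to CCHa2 was 0.68 and CCHa1 relative to CCHa2 was 1.18 without Ctrl 3, while AstA relative to AstC was 0.40 and AstC relative to CCHa1 was -0.68 without Ctrl 2. The 4 pairs that did not pass were AstA with CCHa1 (log2 -0.40, exact adjusted p = 0.0714), AstC with CCHa2 (0.68, 0.629), AstC with Orcokinin (1.55, 0.184) and CCHa2 with Orcokinin (0.87, 0.165). Among these, AstC with CCHa2 was 1.51 without Ctrl 2 and -0.40 without Ctrl 3, AstC with Orcokinin was 2.52 without Ctrl 2 and 0.95 without Ctrl 3, and CCHa2 with Orcokinin was 0.25 without Ctrl 1 and 1.35 without Ctrl 3.

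**Figure D3:**
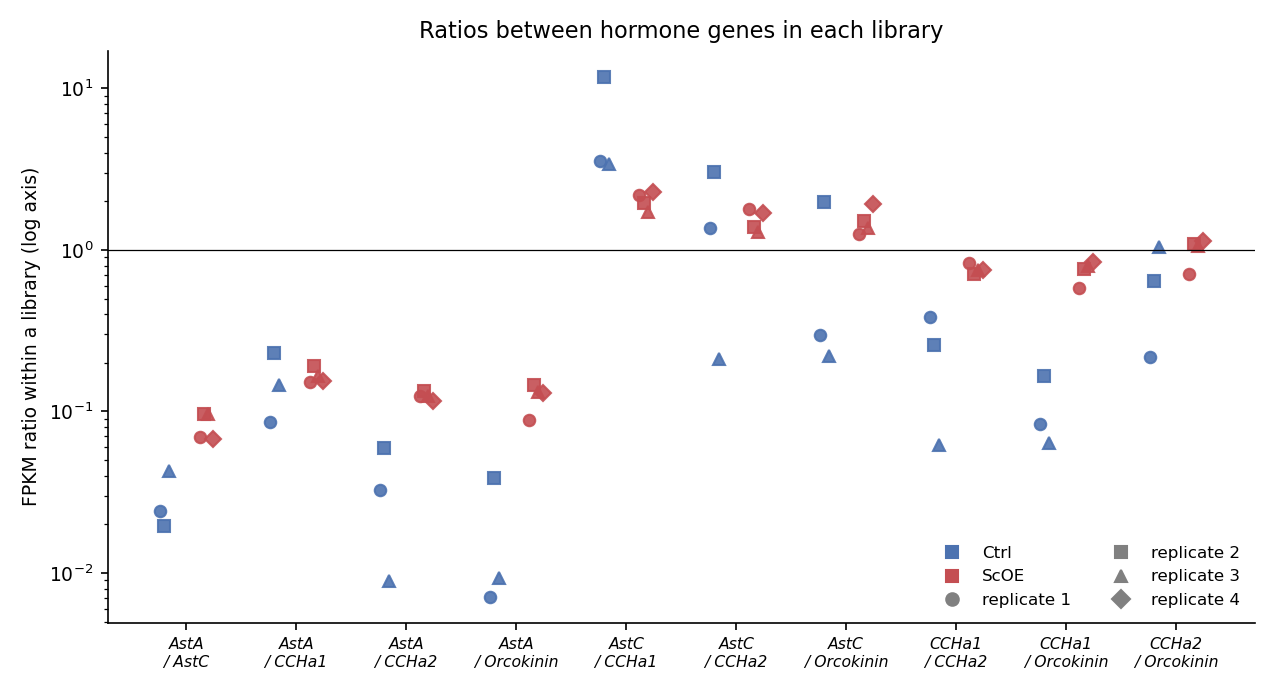
Ratio of FPKM between 2 hormone genes within each library, on a log axis, for the 10 pairs without Mip (Ctrl blue, ScOE red, marker shapes by replicate number). The ScOE points of a pair lie close together, as for CCHa1 over CCHa2 at 0.704 to 0.824, and the Ctrl points are more spread.

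The order of the ScOE libraries by level was also shared by several of the hormones. AstA, AstC, CCHa1, CCHa2 and Mip were highest in ScOE 3, then ScOE 2, ScOE 4 and ScOE 1, an order held by 2.78% of all tested genes and 7.55% of rising genes. Orcokinin had ScOE 3 and ScOE 2 first and ScOE 4 last. The other hormones Tk, NPF and Dh31 shared a different order, with ScOE 4 in the second place. The high library ScOE 3 was also the one with visceral muscle markers, and the part of those cells in its hormone values was not tested. Without ScOE 3 the log2 fold changes were 5.06 for AstA, 4.25 for AstC, 5.46 for CCHa1, 3.49 for CCHa2 and 2.66 for Orcokinin, and all 5 still passed (adjusted p at most 0.0454 in limma).

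The spread among ScOE libraries was 2.32-fold for AstC, 2.84-fold for Orcokinin, 2.94-fold for CCHa1, 3.20-fold for AstA and 3.21-fold for CCHa2, from the lowest to the highest library. It was 1.41-fold for pros, the homeodomain factor that marks enteroendocrine cells, and pros was highest in ScOE 4. ScOE 3, with most RNA of each of these 5 hormones, had the least pros, while ScOE 2 came next to the highest library for both. The other enteroendocrine markers differed from pros. The highest values of nSyb, 7B2 and amon were in ScOE 3 (56.5, 530 and 29.1 FPKM), and that of Rab3 was in ScOE 2 (32.0 FPKM).

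**Figure D4:**
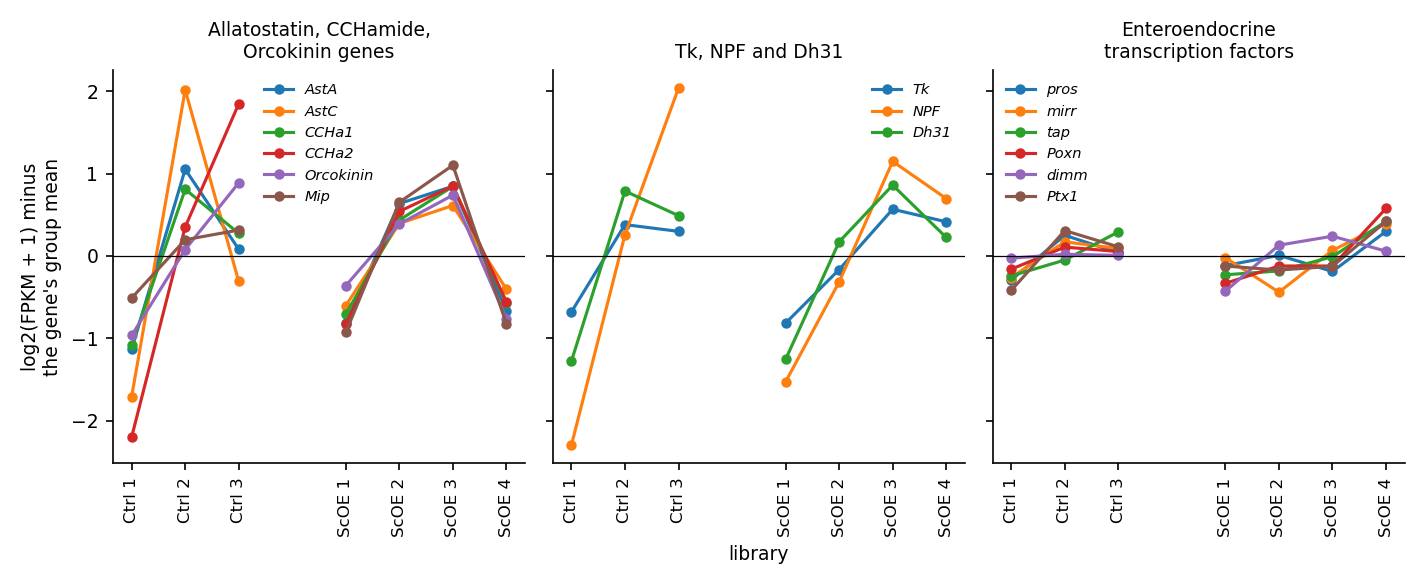
Deviation of log2(FPKM + 1) from the gene's own group mean in each library, for the 6 hormone genes (left), Tk, NPF and Dh31 (middle) and 6 enteroendocrine transcription factors (right); lines only join the values of a gene within a group. The left panel shows ScOE 2 and 3 above and ScOE 1 and 4 below the mean for every one of the 6 genes, and a wide spread among Ctrl libraries.

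Summed over the 6 genes, hormone RNA was at 121, 596 and 641 FPKM in Ctrl and at 3144, 6540, 8069 and 3277 FPKM in ScOE. Within the summed FPKM of these genes with Tk, NPF and Dh31, the 6 made up 75.7%, 75.2% and 52.1% in Ctrl 1, 2 and 3 and 89.7%, 89.8%, 82.1% and 71.0% in ScOE 1, 2, 3 and 4. The groups overlapped in that share. The share of CCHa1 was 1.43% to 3.91% in Ctrl and 11.9% to 15.3% in ScOE, and that of AstA was 0.208% to 0.756% in Ctrl and 1.84% to 2.89% in ScOE. The share of AstC was 13.9%, 38.6% and 4.88% in the Ctrl libraries and 25.8% to 31.1% in ScOE. Orcokinin, at 19.7% to 46.8% in Ctrl and 14.1% to 24.7% in ScOE, overlapped between the groups.

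**Figure D5:**
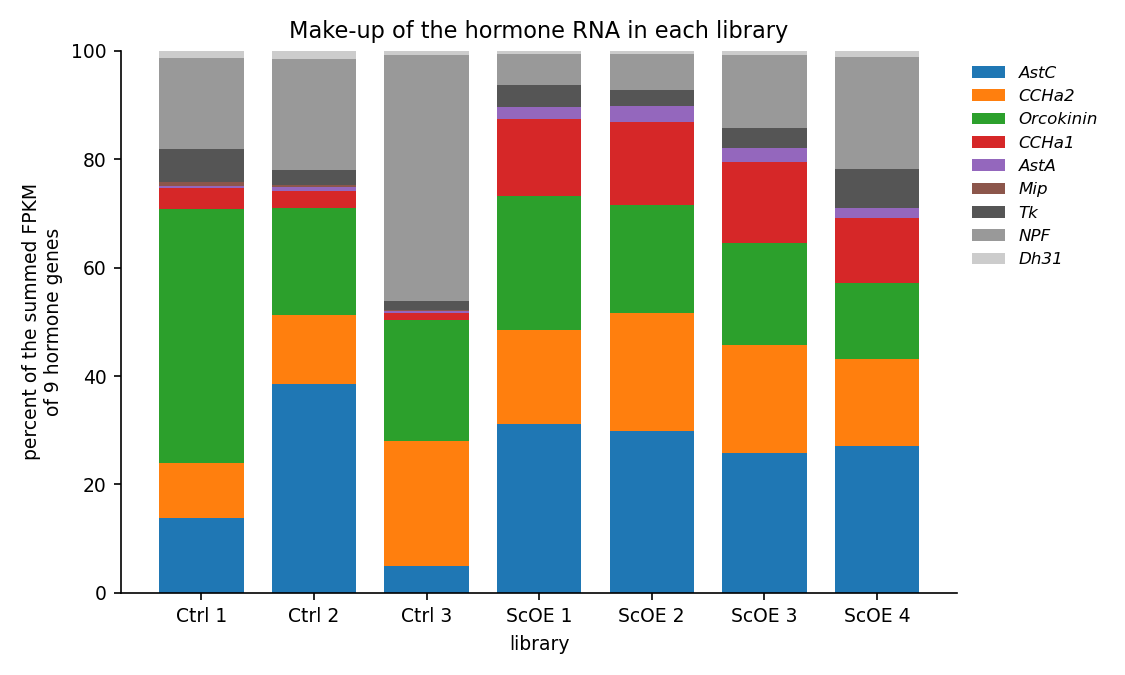
Percent of the summed FPKM of 9 hormone genes taken by each of them in each library (stacked bars, 3 Ctrl and 4 ScOE libraries; greys are Tk, NPF and Dh31). CCHa1 takes 11.9% to 15.3% in ScOE and at most 3.91% in Ctrl, and the Ctrl bars differ more from one another than the ScOE bars do.

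Tk and Dh31 rose, and each of the 6 genes was compared with them and with NPF within libraries. NPF did not pass on the deposited scale (log2 2.12, adjusted p = 0.154 in limma). It was called higher with equal FPKM totals (adjusted p = 0.0292), library weights (0.0483), the replicate block (0.0222), an enterocyte marker covariate (0.00278) and with Ctrl 3 left out (log2 3.14, 0.0427), while its log2 fold change was 0.97 with Ctrl 1 left out. Relative to Tk, the differences between ScOE and Ctrl on the log2 scale were 1.93 for CCHa1, 1.53 for AstA, 0.64 for AstC, -0.04 for CCHa2, -0.90 for Orcokinin and -3.24 for Mip. Single controls moved some of these: the AstC difference was 0.13 without Ctrl 1, 1.46 without Ctrl 2 and 0.34 without Ctrl 3, and that of CCHa2 was -0.80 without Ctrl 1 and 0.74 without Ctrl 3. The CCHa2 difference also turned to 0.29 without ScOE 4, and that of Orcokinin was -0.51 without it. None passed after adjustment over the 6 exact permutation tests (adjusted p of 0.171 for CCHa1, AstA and Mip, the lowest). For Mip alone, the unadjusted exact p was 0.0286. Against Dh31 the exact tests passed for CCHa1 (3.19), AstA (2.78), AstC (1.90) and Mip (-1.98), each with an adjusted p of 0.0429. Each of these had an unadjusted exact p of 0.0286, the same as Mip against Tk. Against NPF none passed, the lowest exact adjusted p being 0.0857, for CCHa1 (3.62) and AstA (3.22).

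Hormone precursors are cut and modified on their way into vesicles, and 5 of the 6 processing genes looked at rose, with none called lower. The chaperone gene 7B2, which acts on the convertase amon, went from 2.89 to 15.6 FPKM in Ctrl to 221 to 530 FPKM in ScOE (log2 5.06 ± 0.54). The convertase gene amon itself rose by 3.23 on the log2 scale, the amidating enzyme genes Pal2 and Phm by 3.45 and 2.10, and the carboxypeptidase gene svr by 1.69. Pal1 did not pass (log2 0.48, adjusted p = 0.132 in limma). The genes 7B2, Phm, Pal2 and amon had the same order of ScOE libraries as AstC.

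All 6 enteroendocrine transcription factors looked at rose, 4 of them (tap, Poxn, mirr and dimm) from below 1 FPKM in every Ctrl library, so these passed the filter through ScOE. The homeodomain factor mirr, known for its part in the AstC class, was at 0.246 to 0.683 FPKM in Ctrl and 15.9 to 29.0 FPKM in ScOE (log2 3.94 ± 0.22). Ptx1, known for its part in the Tk class, was at 7.93 to 13.8 FPKM in Ctrl and 29.5 to 45.0 FPKM in ScOE (log2 1.53 ± 0.22). The factor dimm, which promotes the peptide-secreting state, was at most 0.177 FPKM in Ctrl and 3.64 to 6.37 FPKM in ScOE (log2 2.43 ± 0.18). The rises of pros, tap and Poxn were 4.23, 3.22 and 2.46 on the log2 scale. For the 4 factors below 1 FPKM in Ctrl these sizes depended on the pseudocount. With pseudocounts of 5 and 0.1 they were 2.29 and 5.26 for mirr and 1.65 and 4.71 for tap. For Poxn they were 1.02 and 4.44, and for dimm 0.99 and 4.35. All 6 factors were still called higher with either pseudocount.

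Receptors of these peptides were low in every library. Of 7 receptor genes only AstA-R1 and CCHa1-R reached the filter, both through ScOE libraries alone. AstA-R1 was at 0.291 to 0.651 FPKM in Ctrl and 1.08 to 4.40 FPKM in ScOE (adjusted p = 0.0426 in limma), a call lost without any of Ctrl 1, Ctrl 2, Ctrl 3, ScOE 1 or ScOE 4 (adjusted p = 0.061 to 0.109). It was also lost with a pseudocount of 5 (0.0833), no filter (0.0766), quantile normalization (log2 0.51, 0.316) and an enterocyte marker covariate (0.0684 in limma). CCHa1-R was at 0.0588 to 0.184 FPKM in Ctrl and 0.723 to 1.97 FPKM in ScOE (adjusted p = 0.00753 in limma). This call was lost with quantile normalization (adjusted p = 0.135 in limma). CCHa1-R reached 1 FPKM in ScOE 2, 3 and 4 only, so it missed the filter and was untested with any of these left out. AstC-R1, AstC-R2 and AstA-R2 were at most 0.118 FPKM in Ctrl and between 0.427 and 2.75 FPKM in ScOE, and did not reach the filter. With no filter on low values each of the 3 was called higher (adjusted p = 0.0213, 0.00772 and 0.0391 in limma). CCHa2-R stayed at or below 0.0272 FPKM, and SPR, the receptor of the Mip peptides, at or below 0.376 FPKM.

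Among 11 other peptide genes looked at, 6 reached the filter. CCAP and sNPF rose, both at a few FPKM and tested through their ScOE levels, and both calls were lost with quantile normalization (adjusted p = 0.0604 and 0.0523 in limma). ITP, which encodes an ion transport peptide, fell from 79.2 ± 5.02 to 20.8 ± 2.25 FPKM. Nplp2 fell by 2.30 on the log2 scale, a call that did not hold with Ctrl 2 left out (log2 -2.17, adjusted p = 0.0515 in limma) or with an enterocyte marker covariate (log2 -1.84, adjusted p = 0.0513).

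The annotation places no other gene over any of the 6 loci, but several lie close to a neighbour, and whether reads were assigned by strand is not given in the sources used here. Npc2b, a gene of the NPC2 sterol-binding family, ends 78 bases from the end of CCHa1 on the opposite strand. It was at 4.72, 17.1 and 8.38 FPKM in Ctrl and at 255, 484, 611 and 289 FPKM in ScOE (log2 5.28 ± 0.45, adjusted p = 0.000217 in limma). The ratio of CCHa1 to Npc2b was 1.32 to 2.10 in Ctrl and 1.90 to 2.41 in ScOE. The values of both genes rose and followed the same order of libraries, and whether reads of either were counted for the other was not tested.

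The same closeness did not go with a shared rise at Orcokinin. Galphas, which encodes a G protein subunit, lies 22 bases from it on the opposite strand and was at 62.6 to 74.1 FPKM in Ctrl and 68.9 to 74.1 FPKM in ScOE (adjusted p = 0.489 in limma). At AstA the spindle gene asp lies 16 bases away on the opposite strand, and it rose from 0.847 to 1.03 FPKM in Ctrl to between 5.36 and 8.22 FPKM in ScOE (adjusted p = 0.000191 in limma). AstCC, a relative of AstC whose gene lies 2059 bases from it on the same strand, was at most 0.174 FPKM in any library. CG43725, on the other side of AstC, was at 0 in 6 of 7 libraries and at 0.119 FPKM in ScOE 3.

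For each hormone the 3 tested genes with the most similar profile were found by the root mean square difference of log2(FPKM + 1) over the 7 libraries, each profile centred on its own mean. These genes were close by choice, and fold changes like the hormone's follow from it, since the profiles include the group difference. For AstA they were Npc2b (0.25), CCHa1 (0.25) and 7B2 (0.37), with the median difference of 2.82 over all tested genes given for scale. For CCHa1 they were AstA (0.25), Npc2b (0.31) and 7B2 (0.40). AstC had CG9568 (0.49), CG4577 (0.52) and AstA (0.65). CG9568 was itself abundant, at 104, 455 and 161 FPKM in Ctrl and 2444, 4021, 4537 and 2335 FPKM in ScOE, and like AstC it was highest in Ctrl 2 among the controls.

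CCHa2 and Orcokinin had other neighbours. For CCHa2 they were CG14292 (0.44), veil (0.64) and GILT3 (0.69), and for Orcokinin CG10621 (0.27), GILT3 (0.36) and GstD5 (0.37). CCHa2 and Orcokinin differed by 0.77 from each other, while AstA and Orcokinin differed by 1.31. Orcokinin had rank 7 among the genes nearest to CCHa2, but CCHa2 had rank 201 among those nearest to Orcokinin. The median differences over all tested genes were 2.29 for CCHa2 and 1.66 for Orcokinin. The nearest profiles to Mip, CG30016, Mal-A3 and CG31810, did not pass the test either, which largely follows from how they were chosen. For all 6 genes the same 3 neighbours came out with upper quartile scaling.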

How the data were processed

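The deposited values were FPKM per gene and library. TopHat2 2.0.10 and Cufflinks 2.2.1 are named in the submitters' processing notes, with the build BDGP6; the annotation release, the strand setting and any further scaling are not given in the sources used here. Read numbers cannot be had from FPKM, and the depth of a library is unknown. The commonest ratio among values of 0.001 to 0.1 FPKM put Ctrl libraries at 0.448 to 0.602 and other ScOE libraries at 0.857 to 1.04 of the depth of ScOE 3, so low values were less precise in Ctrl.

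The main test was limma 3.58.1 (R 4.3.3) on log2(FPKM + 1), two-sided and with a mean-variance trend. It covered the 8421 genes that reached 1 FPKM in 3 or more of the 7 libraries, with Benjamini-Hochberg adjustment over all of them and a threshold of 0.05. Fold changes are ScOE minus Ctrl, as deposited and without covariates, and understate those of low genes. Single ratios were compared by exact permutation tests in Python 3.11.15. The limma step was run on simulated data as a check of the code. The simulated tables had independent noise and fewer changed genes than were called here, so the check does not bear on the calls. Coordinates are 1-based, from an Ensembl annotation of BDGP6 whose release may differ from the authors'. The genes described and the lists were chosen with earlier results of these data known, as were the alternatives, and the tests between pairs of the 6 genes were added after their values were seen. Named genes were the 6, all genes of the hormone, receptor, processing and factor lists, up to 3 rising and 3 falling other peptide genes, 3 nearest profiles each, and sc; flanking genes were added later. Figures were drawn with matplotlib 3.10.9.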

Additional observations from a re-analysis of the deposited data

Results flagged for a closer look

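Among 62 sets of 4 ScOE values examined, 4 had a library far from the other 3 by Dixon's test, where chance flags about 1 in 20 groups. The log2 ratio of CCHa2 to Orcokinin was lowest in ScOE 1, at -0.50, where Orcokinin was above CCHa2. Ptx1 was highest in ScOE 4 at 45.0 FPKM, the library with the lowest sc and the highest pros. AstA-R1 was highest in ScOE 3 at 4.40 FPKM, and Nplp2 was highest in the same library at 75.7 FPKM.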

How the results depend on the processing

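AstA, AstC, CCHa1, CCHa2 and Orcokinin kept their direction and passed in 19 of 19 alternative settings (other pseudocounts, filters, scalings and variance models, library weights, the replicate block, an enterocyte marker covariate, an exact permutation test, and each library left out in turn). Their log2 fold changes ranged from 4.19 to 6.03 for AstA, 3.07 to 5.46 for AstC, 5.20 to 6.57 for CCHa1, 2.67 to 5.10 for CCHa2 and 2.42 to 3.77 for Orcokinin. CCHa2 came closest to the threshold, with an adjusted p of up to 0.0454 in limma. Of these settings, the exact permutation test was not adjusted over genes. Its p was 0.0286 for each of the 5 genes, the smallest it can give, and their groups already lay apart. The replicate block and the fit without ScOE 4 gave the same log2 fold changes, so they are not separate checks of size. Mip passed in 0 of 18 settings (log2 0.21 to 1.17; adjusted p 0.0821 to 0.777 in limma), and could not be fitted with a filter of 5 FPKM, which it did not reach. With equal FPKM totals 4453 genes were called higher and 279 lower, in place of 1484 and 1796, and the median over tested genes moved from -0.08 to 0.69 (log2), a shift that the log2 fold changes of the 6 share. Of all calls, 45.2% were rises as deposited, 60.5% under upper quartile scaling and 94.1% under equal totals. The deposited totals differed between the groups, at 1.92e+06 to 2.61e+06 summed FPKM in Ctrl and 1.06e+06 to 1.38e+06 in ScOE. With Dh31 in place of Tk, the differences of 2.78 for AstA, 1.90 for AstC, 3.19 for CCHa1 and -1.98 for Mip passed. The log2 fold change of Dh31 was 2.55 and that of Tk 3.81, and why they differed was not tested. For Mip the unadjusted exact p was 0.0286 against both. Its adjusted p depends on how many of the 6 genes reach that value. With a pseudocount of 5, AstA relative to AstC turned from 0.88 to -0.15, as AstA was at or below 5.99 FPKM in Ctrl. With that pseudocount AstA relative to CCHa2 no longer passed (0.53), and AstA relative to CCHa1 did (-1.19). With a pseudocount of 0.1, AstA relative to CCHa1 was 0.12 and did not pass (exact adjusted p = 0.686). The plain FPKM ratio of AstA to CCHa1 overlapped, at 0.0856 to 0.231 in Ctrl and 0.152 to 0.190 in ScOE.

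The labels do not say whether same-numbered libraries belong together. The correlations of their deviations from group means were 0.52, -0.04 and 0.08 for numbers 1, 2 and 3. Ctrl 1 correlated best with ScOE 1, its values with ScOE 2, 3 and 4 being -0.12, -0.11 and -0.39. Ctrl 2 and Ctrl 3 did not correlate best with their own numbers. Whether Ctrl 1 and ScOE 1 were prepared together was not tested. With the replicate block 1191 genes were called higher and 1349 lower, and the log2 fold changes were 5.56 for AstA, 4.59 for AstC, 5.93 for CCHa1, 3.96 for CCHa2, 3.16 for Orcokinin and 0.85 for Mip. No Ctrl library has the number 4, so ScOE 4 did not inform these fold changes, which equal those with ScOE 4 left out. The block changed no call among the 6. Among the other genes looked at, NPF passed with it (1.89, adjusted p = 0.0222 in limma), as did the peptide gene Gpb5 (0.74, adjusted p = 0.0311). Levels near 1 FPKM, as for Mip and the receptors, limit what can be shown there, since depth is unknown.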
